A study of Mus musculus with 24 samples.

Results

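The genes described here encode 10 mitochondrial enzymes of long-chain fatty acid oxidation: Acadl, Acadm, Acadvl, Hadha, Hadhb, Acaa2, Cpt1b, Cpt2, Eci1 and Etfdh. They were chosen by name, with earlier results of these data known. Their counts beside shares of all genes are therefore descriptions. A gene was counted as measured where an array feature carried its symbol and no other in the platform's probe-to-gene annotation. By this rule 9 of the 10 were measured, each by 1 feature, among 22180 genes in all. Cpt1b, the muscle carnitine palmitoyltransferase of the outer mitochondrial membrane, was left without a value, because its 1 feature also carries the symbols Chkb and Gm44502.

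All 24 samples were hearts (labelled myocardium) of male Clock delta 19/delta 19 mice aged 8 weeks under 12 h of light and 12 h of darkness. Hearts were collected at Zeitgeber time (ZT, hours after lights on) 3, 7, 11, 15, 19 and 23, with 4 biological replicates at each. The light phase holds ZT03, ZT07 and ZT11, and the dark phase, when mice are active and feed, holds the later 3 times. Every heart carries the mutation, in which CLOCK still pairs with BMAL1 but activates transcription poorly, and hearts of wild-type mice were not analysed here, so no value below compares genotypes.

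The adult heart draws most of its ATP from fatty acids. Long-chain acyl groups are passed onto carnitine by Cpt1b, carried through the inner membrane and returned to coenzyme A by Cpt2. Each turn of beta oxidation then begins with an acyl-CoA dehydrogenase of matching chain length (Acadvl for very long, Acadl for long and Acadm for medium chains), continues through hydratase and dehydrogenase steps and ends in a thiolase cleavage that releases acetyl-CoA. For long chains the later steps are carried out by the trifunctional protein, whose subunits are Hadha and Hadhb, while Acaa2 is a soluble thiolase of the matrix. Eci1 shifts the double bond of unsaturated chains into a position that the pathway can use, and Etfdh passes electrons from the dehydrogenases, through electron transfer flavoprotein, to ubiquinone. Many of these genes are known targets of PPAR alpha, a fatty acid receptor that binds AGGTCA half-sites as a dimer with RXR.

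Upstream sequence was read from RefSeq (GRCm38.p6) as the 250 bases before each annotated start, and 8 of the 10 genes had an entry. Stretches of 4 genes are shown, 5′ to 3′ on the strand of the gene, with AGGTCA or its reverse complement in capitals. Acadl, at chr1:66863310-66863559 on the minus strand, is shown because it alone passed a test below, and it holds no AGGTCA but 4 copies of the GC box GGGCGG. Acadm, at chr3:153944644-153944893 on the minus strand, and Acadvl, at chr11:70015429-70015678 on the minus strand, are the members that hold the half-site. The Hadhb stretch, at chr5:30155003-30155252 on the plus strand, is shown because it lies between the divergent starts of Hadhb and Hadha.
Acadl: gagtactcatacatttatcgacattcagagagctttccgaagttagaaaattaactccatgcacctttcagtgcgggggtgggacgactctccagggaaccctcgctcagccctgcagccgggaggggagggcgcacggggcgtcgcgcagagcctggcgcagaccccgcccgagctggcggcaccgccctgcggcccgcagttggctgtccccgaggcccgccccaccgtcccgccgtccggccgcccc
Acadm: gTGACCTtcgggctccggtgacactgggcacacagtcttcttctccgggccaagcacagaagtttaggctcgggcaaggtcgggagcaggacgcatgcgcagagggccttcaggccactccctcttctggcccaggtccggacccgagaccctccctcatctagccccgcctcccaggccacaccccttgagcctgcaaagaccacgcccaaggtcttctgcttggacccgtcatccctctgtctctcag
Acadvl: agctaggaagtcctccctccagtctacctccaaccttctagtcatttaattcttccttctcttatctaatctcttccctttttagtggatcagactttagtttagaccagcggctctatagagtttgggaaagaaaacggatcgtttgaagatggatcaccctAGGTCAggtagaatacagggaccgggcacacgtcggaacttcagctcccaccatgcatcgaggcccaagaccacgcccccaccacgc
Hadhb: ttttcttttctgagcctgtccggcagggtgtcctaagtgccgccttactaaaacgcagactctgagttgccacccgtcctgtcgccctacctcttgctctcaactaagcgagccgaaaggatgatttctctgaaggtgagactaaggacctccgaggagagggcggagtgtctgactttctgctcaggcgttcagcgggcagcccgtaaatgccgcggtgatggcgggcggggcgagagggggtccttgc

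Read on both strands, AGGTCA was present in 2 of the 8 member stretches and in 14% of 32851 stretches of the same length over all annotated starts. Its last base lay 244 bases before the start in Acadm and 82 bases before it in Acadvl. GGGCGG was found in 5 of 8 members (Acadl, Cpt2, Eci1, Hadha and Hadhb) and in 32.7% of all stretches. The E-box CACGTG, the letters that the CLOCK and BMAL1 dimer binds, was found in 0 of 8 members and in 6.02% of all stretches, and the TATA box TATAAA in 0 of 8 and 12.4%. None of these motifs contains another, and a match or its absence describes only this window. The starts of Hadha and Hadhb are 272 bases apart on chromosome 5, so that 228 bases are common to their upstream stretches (chr5:30155003-30155230). The 1 GGGCGG of the Hadha stretch lies in these bases and is also 1 of the 2 copies of Hadhb. The same site thus counts for both genes in the 5 of 8.

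The deposited values are logarithms centred on the median of each feature over the 24 arrays, and sizes are called log2 here although no source used here gives the base; on a natural log scale each would be 1.44 times larger. They therefore hold differences between hearts and no level, and levels of different genes cannot be compared. The 1 trace of level is the number grid on which a feature was stored. On the grid of larger numbers (between 8 and 16 before centring) lay 666 features (1.94%). The grid of the remainder was not determined. Of the 9 members, 6 were in the larger class (Acadl, Acadm, Acadvl, Hadha, Acaa2 and Etfdh). Of the cardiomyocyte markers 7 of 8 were in that class, which fits the label of heart muscle. The class held 2 of 5 endothelial, 1 of 5 fibroblast, 1 of 4 atrial and 1 of 6 skeletal muscle markers (Ckm). It held 0 of 6 adipocyte, 0 of 5 macrophage and 0 of 4 smooth muscle markers. Array medians lay between -0.0080 and 0.0023, and ZT11 replicate 1 had the widest spread over genes (SD 0.153, against 0.0951 in the narrowest array) and the lowest array weight (0.54). In whole tissue, fewer cells of a type and less RNA per cell cannot be told apart.

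The highest and lowest time-point means of a member differed by a fold of at most 1.15. The range of the 6 time-point means ran from 0.071 for Hadha to 0.20 for Acadl (log2), folds of 1.05 and 1.15, while the SD within time points ran from 0.043 for Acadm to 0.14 for Acadvl. The median range of the members was 0.17, against 0.12 over all genes, and their median SD within time points was 0.089, against 0.087. In the time-of-day test (limma's moderated F test over the 6 time points, Benjamini-Hochberg adjustment over all genes at 0.05), 0 of 9 members passed, where 1.48% of all genes did. At an unadjusted p under 0.05 there were 3 members, Acadl (adjusted p = 0.13), Acaa2 (adjusted p = 0.24) and Acadm (adjusted p = 0.36), and 2973 genes (13.4%). Of the 9 members, 7 had their lowest mean at ZT23, the exceptions being Acadl (ZT11) and Hadha (ZT15). The share of all genes with their lowest mean at ZT23 was not determined. The members were measured in the same hearts, so this count is a description only. In the order of time-point means, the gap between neighbours exceeded the larger of their SDs once for Acadl, between ZT15 and ZT23, and at no other step of any member.

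**Figure D1:**
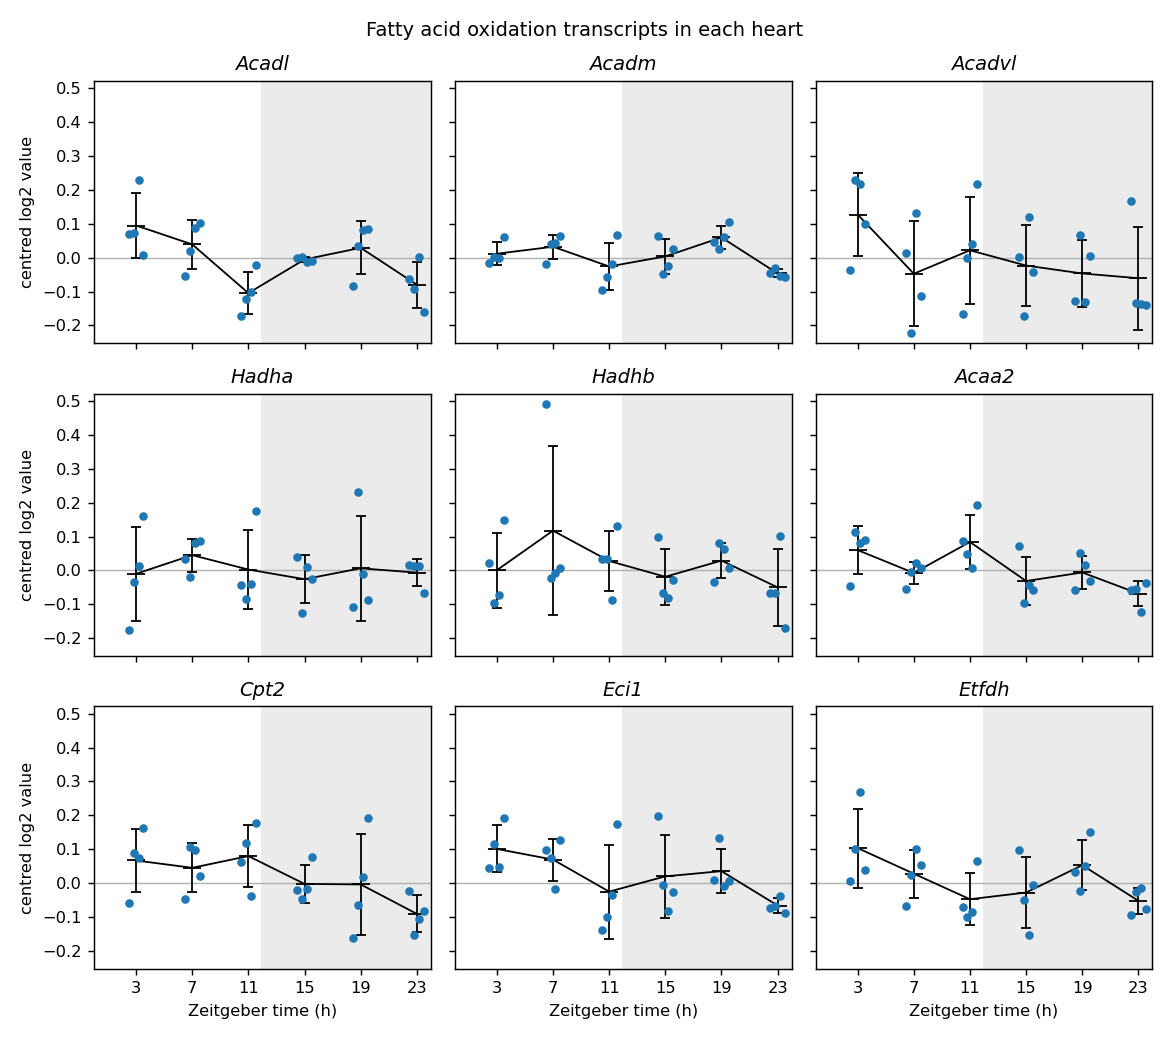
Centred log2 value of the 9 measured enzymes (vertical axis) at each Zeitgeber time in hours (horizontal axis); each dot is 1 heart, bars give the mean ± SD of 4 hearts and grey marks the dark phase. Acadl lies lowest at ZT11, 7 members have their lowest mean at ZT23, and 1 heart at ZT07 stands at 0.49 for Hadhb.

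Among the acyl-CoA dehydrogenases, Acadl, which acts on long chains, had the widest range of time-point means of any member. It did not pass the time-of-day test (adjusted p = 0.13 in limma). Acadl stood at 0.069, 0.073, 0.23 and 0.0070 (log2) in the 4 ZT03 hearts and at -0.055, 0.020, 0.089 and 0.10 at ZT07. It stood at -0.17, -0.12, -0.10 and -0.022 at ZT11, the lowest mean of the day. In the dark phase it stood at -0.0011, 0.0025, -0.014 and -0.0084 at ZT15, at -0.084, 0.035, 0.082 and 0.083 at ZT19, and at -0.064, -0.094, 0.0011 and -0.16 at ZT23. The hearts at ZT15 were thus nearly identical (SD 0.0073, n = 4), whereas those at ZT03 spread widely (SD 0.095, n = 4). All 4 ZT11 hearts lay below all 4 ZT03 hearts, a separation in either direction that 8.09% of all genes showed. Acadl fell at ZT11 relative to ZT03 by 0.20 on the log2 scale (SE 0.049, n = 4 each, a fold of 0.871), with an adjusted p of 0.033 in limma. It was the 1 member of 9 that passed in that comparison, where 2.29% of all genes did. The adjustment covered the genes within each comparison and not the number of comparisons.

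The call for Acadl rested on single hearts. Left out in turn, ZT03 replicate 1, 2 or 3 raised the adjusted p in limma to 0.059, 0.071 and 0.14, and ZT11 replicate 1, 2 or 3 to 0.12, 0.073 and 0.077, while the difference stayed between -0.23 and -0.15 and the other 18 omissions kept the call. Without both arrays of lowest weight (ZT11 replicate 1 and ZT19 replicate 1), a setting added after the data were seen, the difference was -0.18 with an adjusted p of 0.086. Markers of cell types differed between the same hearts in limma. Dcn, a fibroblast proteoglycan, was lower at ZT11 (-0.28, adjusted p = 0.043), the 1 of 5 fibroblast markers that passed. The mean of the fibroblast list was -0.031 at ZT11 (-0.094 to 0.11 over hearts) and 0.13 at ZT03 (0.063 to 0.20). Tnni3, cardiac troponin I, was higher at ZT11 (0.23, adjusted p = 0.038), 1 of 8 cardiomyocyte markers, with list means of 0.043 at ZT11 (-0.016 to 0.075) and -0.041 at ZT03 (-0.097 to 0.035). Ckm, muscle creatine kinase, was also higher at ZT11 (0.53, adjusted p = 0.0034), 1 of 6 genes of a skeletal muscle list. Whether the Ckm difference came from heart muscle or skeletal muscle was not tested. Of the atrial, endothelial, smooth muscle, macrophage and adipocyte markers 0 passed. The part of these marker differences in the Acadl difference was not tested.

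Acadm, the medium-chain enzyme, varied least within time points of any member. Its means ran from -0.047 ± 0.012 at ZT23 to 0.060 ± 0.034 at ZT19 (SD, n = 4 each), and its hearts from -0.096 at ZT11 replicate 1 to 0.10 at ZT19 replicate 4. Acadvl, the very-long-chain enzyme at the inner membrane, varied most within time points: it averaged 0.13 ± 0.12 at ZT03 and between -0.061 and 0.022 at the other times, with SDs of 0.099 to 0.16. Its hearts ran from -0.22 at ZT07 replicate 2 to 0.23 at ZT03 replicate 2, and its adjusted p in the time-of-day test was 0.75.

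The subunits of the trifunctional protein did not pass the time-of-day test. Hadha, which carries the hydratase and hydroxyacyl-CoA dehydrogenase activities, had means between -0.026 at ZT15 and 0.045 at ZT07 (adjusted p = 0.99 in the time-of-day test), and its hearts ran from -0.18 at ZT03 replicate 1 to 0.23 at ZT19 replicate 2. Hadhb, the thiolase subunit, averaged 0.12 ± 0.25 at ZT07 (SD, n = 4), a mean set by replicate 1 at 0.49, with the other hearts there at -0.023, -0.0079 and 0.0079. Its remaining means lay between -0.050 at ZT23 and 0.029 at ZT19, and without that heart the range of its means was 0.079 in place of 0.17. The same heart stood at 0.032 for Hadha, the gene that shares the upstream sequence shown above.

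Acaa2, the soluble thiolase, showed its lowest values late in the dark phase. It stood at -0.045, 0.11, 0.082 and 0.091 at ZT03, at -0.053, -0.0061, 0.023 and 0.0068 at ZT07 and at 0.087, 0.049, 0.0061 and 0.19 at ZT11. In the dark it stood at 0.071, -0.095, -0.044 and -0.058 at ZT15, at -0.059, 0.051, 0.016 and -0.032 at ZT19 and at -0.058, -0.056, -0.12 and -0.036 at ZT23. All 4 ZT23 hearts lay below all 4 ZT11 hearts, as in 3.32% of all genes in either direction, and the difference of -0.15 (SE 0.043) did not pass over all genes (adjusted p = 0.30 in limma).

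Cpt2, the carnitine palmitoyltransferase of the inner membrane, had a similar order of means, with ZT11 highest and ZT23 lowest. It stood at -0.060, 0.089, 0.075 and 0.16 at ZT03, at -0.046, 0.11, 0.099 and 0.020 at ZT07 and at 0.062, 0.12, -0.038 and 0.18 at ZT11. It stood at -0.021, -0.048, -0.019 and 0.077 at ZT15, at -0.16, -0.065, 0.019 and 0.19 at ZT19 and at -0.022, -0.15, -0.11 and -0.082 at ZT23. The hearts of ZT19 spanned the whole range of the gene, and those of ZT23 and ZT11 overlapped. ZT23 minus ZT11 was -0.17 (SE 0.063, adjusted p = 0.49 in limma).

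Etfdh, the ubiquinone-linked dehydrogenase, was highest at ZT03, at 0.0050, 0.10, 0.27 and 0.039, and stood at -0.068, 0.025, 0.099 and 0.055 at ZT07. At ZT11 it stood at -0.071, -0.10, -0.085 and 0.066, so that 3 of the 4 ZT11 hearts lay below all 4 ZT03 hearts. ZT15 hearts stood at 0.097, -0.050, -0.15 and -0.0050, ZT19 hearts at 0.032, -0.024, 0.051 and 0.15, and ZT23 hearts at -0.095, -0.025, -0.014 and -0.076. The ZT11 minus ZT03 difference of -0.15 (SE 0.058) had an unadjusted p of 0.016 and an adjusted p of 0.20 in limma. Eci1, the isomerase, averaged -0.066 ± 0.021 at ZT23, its lowest mean, and 0.10 ± 0.070 at ZT03, its highest (SD, n = 4 each), and its ZT11 minus ZT03 difference was -0.13 (SE 0.061, adjusted p = 0.35 in limma). At ZT11 its hearts stood at -0.14, -0.10, -0.035 and 0.17, and the last of these overlapped the ZT03 hearts (0.046, 0.12, 0.048 and 0.19).

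No member passed as a 24 h rhythm. Amplitudes of a fitted 24 h cosine (mean to peak) ran from 0.0057 for Acadm to 0.063 for Cpt2, 0 of 9 passed in limma against 0.0631% of all genes, and the smallest adjusted p was 0.51. At an unadjusted p under 0.05 there were 0 members and 2403 genes. With 1 cycle sampled, such a fit describes the profile only.

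The 12 dark-phase hearts were set against the 12 light-phase hearts to ask whether the enzymes' transcripts differ between the active and the resting phase. All 9 estimates were below 0, where 47.4% of all genes were, with a median of -0.052 against 0.0022 over all genes. The 9 estimates come from the same hearts and are not independent. In limma 0 of 9 passed, against 0.379% of all genes. At an unadjusted p under 0.05 there were 2 members, with 2336 of all genes (10.5%). Cpt2 averaged -0.032 ± 0.098 in dark hearts and 0.064 ± 0.079 in light hearts (SD, n = 12 each), a difference of -0.096 (SE 0.036, adjusted p = 0.32), with 11 of 12 dark hearts below the median light heart. Acaa2 averaged -0.035 ± 0.056 in dark hearts and 0.045 ± 0.071 in light hearts, a difference of -0.081 (SE 0.025, adjusted p = 0.18), with 10 of 12 dark hearts below the median light heart. Groups overlapped in both genes. The 5 fibroblast markers were also all below 0 in dark minus light (median -0.12, 0 passed), with list means of -0.20 to 0.11 over dark hearts and -0.094 to 0.20 over light hearts, and so were the 4 atrial markers (median -0.12, 0 passed), with list means of -0.39 to 0.42 over dark hearts and -0.42 to 0.72 over light hearts. Below 0 lay 3 of 4 smooth muscle (median -0.028) and 3 of 5 macrophage markers (-0.028). Medians were above 0 for the cardiomyocyte (0.022, 2 of 8 below 0) and endothelial lists (0.050, 1 of 5). The same held for the skeletal muscle (0.040, 1 of 6) and adipocyte lists (0.0082, 2 of 6). In each of these lists 0 passed. The part of these marker differences in the members' shift was not tested. The intervals of all members (95%) ran from -0.19, for Acadvl, to 0.065, for Hadha. Acadm lay at -0.00041 (-0.040 to 0.039). Its sign turned under array weights (0.00072) and in 12 of the 24 fits that each left out 1 heart.

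**Figure D2:**
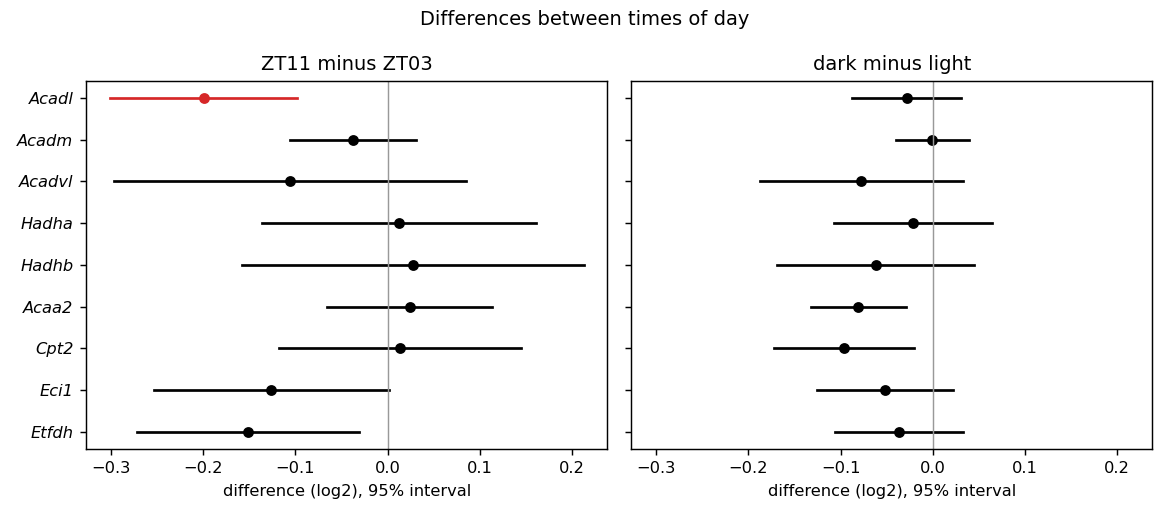
Differences between time points with 95% intervals for the 9 measured enzymes (vertical axis) on the log2 scale (horizontal axis), ZT11 minus ZT03 on the left and dark minus light on the right, with red for an adjusted p under 0.05. Acadl at -0.20 is the 1 red point, and all 9 dark minus light estimates lie below 0.

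The comparisons of time points 12 h apart gave no member past the threshold, and comparisons with a common time point share hearts (ZT03 in ZT11 and ZT15 minus ZT03, and ZT11 in ZT11 minus ZT03 and ZT23 minus ZT11). In ZT15 minus ZT03, all 9 estimates were below 0, against 46.6% of all genes, with a median of -0.081 against 0.0051. The 9 estimates come from the same hearts and are not independent. Under array weights Hadha (0.0012) and Hadhb (0.0018) turned above 0. Acadm, Hadha and Hadhb each reached above 0 in fits that left out 1 heart. In limma 0 of 9 passed, against 1.08% of all genes. At an unadjusted p under 0.05, which 13% of all genes had, there were 2 members. These were Etfdh (-0.13, adjusted p = 0.32) and Acaa2 (-0.091, adjusted p = 0.37). Markers differed in the same hearts in limma. Dcn was lower at ZT15 (-0.30, adjusted p = 0.047), 1 of 5 fibroblast markers. Means of the fibroblast list were -0.027 at ZT15 (-0.11 to 0.11 over hearts) and 0.13 at ZT03 (0.063 to 0.20). Ckm was higher (0.36, adjusted p = 0.039), 1 of 6 genes of the skeletal muscle list. Means of that list were 0.025 at ZT15 (0.0019 to 0.056) and -0.056 at ZT03 (-0.11 to -0.027). Their part in the members' shift was not tested. Acadl was again lower in all 4 ZT15 hearts than in all 4 ZT03 hearts, as 8.03% of all genes were separated there, with a difference of -0.10 (adjusted p = 0.39). In ZT11 minus ZT03, 5 of 9 were below 0, against 46.3% of all genes, with a median of -0.038 against 0.0050. The 3 acyl-CoA dehydrogenases, Eci1 and Etfdh were those below 0, and Hadha, Hadhb, Acaa2 and Cpt2 lay between 0.013 and 0.027.

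In ZT19 minus ZT07, 0 of 9 members and 0 of all genes (0%) passed in limma, while 0 members and 1238 genes had an unadjusted p under 0.05. The member estimates ran from -0.088 for Hadhb to 0.027 for Acadm, and 5 of 9 were below 0, against 48.8% of all genes. In ZT23 minus ZT11, 0 of 9 members and 0 of all genes (0%) passed, with 2 members (Acaa2 and Cpt2) and 1628 genes at an unadjusted p under 0.05. There 8 of 9 were below 0, against 50.4% of all genes, the exception being Acadl at 0.025. The median was -0.041 against -0.00044 over all genes. These estimates too come from the same hearts and are not independent. Acadm, Hadha, Eci1 and Etfdh each reached above 0 in fits that left out 1 heart. Over the 3 comparisons 12 h apart, the 95% intervals of the members reached from -0.34 to 0.19.

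Some members varied together over the 24 hearts. Of the 36 pairs of members, 8 passed permutation tests of Pearson's r and 7 of Spearman's rho, with adjustment over the pairs. The permutations moved hearts across time points, so shared differences between time points count towards a pass. Pairs of other genes were not tested. The median r of the 36 pairs was 0.36, and 0.33 once each time-point mean was subtracted (not tested), and the points of a pair share the array. Of the pairs that passed by r, Acadl and Acadm fell from 0.55 to 0.35 within time points, and Eci1 and Etfdh from 0.51 to 0.30. Hadha and Eci1 were the only pair of these to rise, from 0.54 to 0.64. They did not pass by rho (0.47, adjusted p = 0.092 in the permutation test). Acadl and Eci1, which passed by rho only, fell in r from 0.48 to 0.12. The closest pair was Acadl and Etfdh (r = 0.77, adjusted p = 0.0014; rho = 0.76, adjusted p = 0.00048, permutation tests), at 0.66 within time points and 0.67 without the 2 hearts farthest from the median of Acadl. Acadm and Eci1 followed (r = 0.67, adjusted p = 0.0056; rho = 0.75, adjusted p = 0.00048, permutation tests), at 0.64 within time points and 0.71 without the 2 farthest hearts. Hadha and Hadhb, subunits of 1 complex, had r = 0.37 (adjusted p = 0.16) and rho = 0.45 (adjusted p = 0.10) in the same permutation tests. Hadhb was near 0 with Acadl, Acadvl, Cpt2 and Etfdh, with r between -0.017 and 0.091.

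Single hearts stood out across the set. ZT11 replicate 4 was the highest of its time point for 9 of 9 members, where it was the highest for 27.7% of all genes, and its mean over the 9 members was 0.13, against -0.056, -0.029 and -0.040 in the other ZT11 hearts. ZT03 replicate 4 was above 0 for 9 of 9 members (mean 0.11) and ZT23 replicate 4 for 0 of 9 (mean -0.098). By time point the mean over members was 0.062 ± 0.058 (ZT03), 0.036 ± 0.026 (ZT07) and 0.0014 ± 0.087 (ZT11) in the light. In the dark it was -0.012 ± 0.054 (ZT15), 0.017 ± 0.051 (ZT19) and -0.058 ± 0.031 (ZT23; SD, n = 4 each). The 4 ZT23 hearts lay between -0.098 and -0.027, all below 0, while those of ZT11 spanned -0.056 to 0.13.

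**Figure D3:**
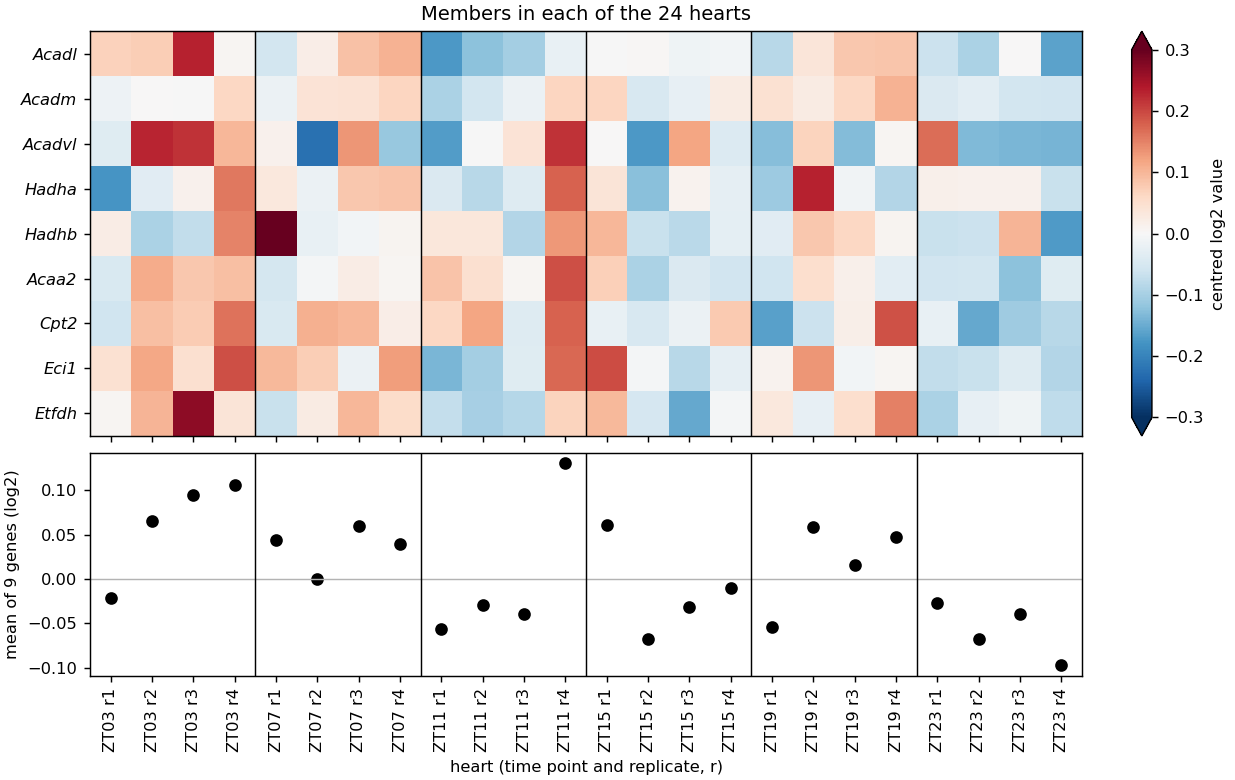
Centred log2 value of each of the 9 enzymes (rows) in each of the 24 hearts (columns, ordered by time point and replicate, with colours limited to -0.3 and 0.3), and below it the mean of the 9 in each heart on the log2 scale. ZT11 replicate 4 reaches 0.13 where the other ZT11 hearts lie below 0, and all ZT23 hearts lie below 0.

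Beyond the members, 57 other genes of fatty acid use were listed in 8 groups, and 52 were measured. The lists were also drawn up with earlier results of these data known, so shares over all genes are given as a description. In the time-of-day test 2 of the 52 passed, against 1.48% of all genes, and in ZT11 minus ZT03 3 passed (1 higher and 2 lower), against 2.29%. At an unadjusted p under 0.05 there were 15 of the 52 in the time-of-day test, against 13.4% of all genes, and 13 in ZT11 minus ZT03, against 14.5%. In the other comparisons 0 of the 52 passed in limma. Below that unadjusted p lay 11 in the 24 h test (10.8% of all genes), 12 in dark minus light (10.5%), 16 in ZT15 minus ZT03 (13% of all genes), 5 in ZT19 minus ZT07 (5.58%) and 6 in ZT23 minus ZT11 (7.34%). The median difference of the 52 was -0.049 in ZT11 minus ZT03, -0.044 in dark minus light and -0.069 in ZT15 minus ZT03.

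Among genes of uptake and activation (8 of 10 measured), Acsl4, an acyl-CoA synthetase that prefers arachidonate, was the 1 that passed in ZT11 minus ZT03. It stood at -0.044, -0.019, -0.18 and -0.23 in the ZT11 hearts and at 0.099, 0.23, 0.24 and 0.061 in the ZT03 hearts, without overlap (8.09% of all genes were separated so in either direction), and fell at ZT11 by 0.27 (SE 0.072, adjusted p = 0.047 in limma). That call held in 8 of the 24 fits that each left out 1 heart, with adjusted p between 0.026 and 0.16, the highest without ZT03 replicate 3, and was lost under quantile normalization (0.062) and robust eBayes (0.051). Cd36, the fatty acid translocase (range of means 0.13, adjusted p = 0.14), and Slc27a1, a fatty acid transport protein (0.31, adjusted p = 0.78), did not pass the time-of-day test.

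Of the peroxisomal genes (8 of 10 measured), Crot, which moves medium-chain acyl groups shortened in peroxisomes onto carnitine, passed the time-of-day test (range of means 0.30, adjusted p = 0.030 in limma), with its highest mean at ZT07 and its lowest at ZT11. It stood at -0.062, -0.12, -0.21 and -0.021 in the ZT11 hearts and at 0.091, 0.17, 0.22 and 0.0011 in the ZT03 hearts, all ZT11 hearts below all ZT03 hearts (8.09% of all genes in either direction), and fell at ZT11 by 0.22 (SE 0.058, adjusted p = 0.045 in limma, and 0.068 under quantile normalization). With single hearts left out, the time-of-day call held in 16 of 24 fits (adjusted p up to 0.070, without ZT07 replicate 4) and the ZT11 minus ZT03 call in 11 of 24 (up to 0.17, without ZT03 replicate 3). Abcd2 and Abcd3, peroxisomal importers of acyl-CoA, had ranges of 0.34 (adjusted p = 0.25) and 0.28 (adjusted p = 0.38).

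Of the transcriptional regulators (11 of 11 measured), Klf15, a glucocorticoid-responsive factor of cardiac lipid metabolism, passed the time-of-day test (range of means 0.39, adjusted p = 0.026 in limma), highest at ZT11 and lowest at ZT23. It stood at 0.036, 0.16, 0.21 and 0.40 in the ZT11 hearts and at -0.020, -0.084, -0.15 and -0.064 in the ZT03 hearts, without overlap (8.09% of all genes in either direction), and rose at ZT11 by 0.28 (SE 0.068, adjusted p = 0.030), the opposite direction to Acadl in the same hearts. With single hearts left out, the 2 calls held in 19 and 20 of 24 fits, with adjusted p up to 0.059 without ZT11 replicate 3 and up to 0.11 without ZT03 replicate 3. Nrip1, a corepressor of nuclear receptors (0.35, adjusted p = 0.21), and Ppargc1a, the coactivator PGC-1 alpha (0.28, adjusted p = 0.41), did not pass.

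In the other groups 0 genes passed in the 2 comparisons that gave calls. Of the other carnitine genes (5 of 5 measured), the range of means was 0.19 for Crat, 0.34 for Cpt1a, the liver isoform of the outer membrane transferase, and 0.32 for Slc25a20, the carnitine-acylcarnitine carrier, with adjusted p of 0.20, 0.37 and 0.63 in the time-of-day test of limma. Of the other beta oxidation enzymes (10 of 10), Echs1, the short-chain hydratase, had a range of 0.28 (adjusted p = 0.17), Hadh, the medium- and short-chain dehydrogenase, 0.16 (adjusted p = 0.26) and Hsd17b10 0.18 (adjusted p = 0.36). The subunits of electron transfer flavoprotein, which feed Etfdh, had ranges of 0.32 for Etfb (adjusted p = 0.28) and 0.16 for Etfa (adjusted p = 0.44). The genes that make and remove malonyl-CoA, the inhibitor of carnitine palmitoyltransferase 1, had ranges of 0.17 for Acaca (adjusted p = 0.17), 0.34 for Acacb (adjusted p = 0.50) and 0.14 for Mlycd (adjusted p = 0.93). Of the thioesterases and uncoupling proteins (5 of 6), Acot2 had the widest range of the named genes, 1.54 (adjusted p = 0.17), Acot9 0.48 (adjusted p = 0.33) and Ucp3 0.39 (adjusted p = 0.69).

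**Figure D4:**
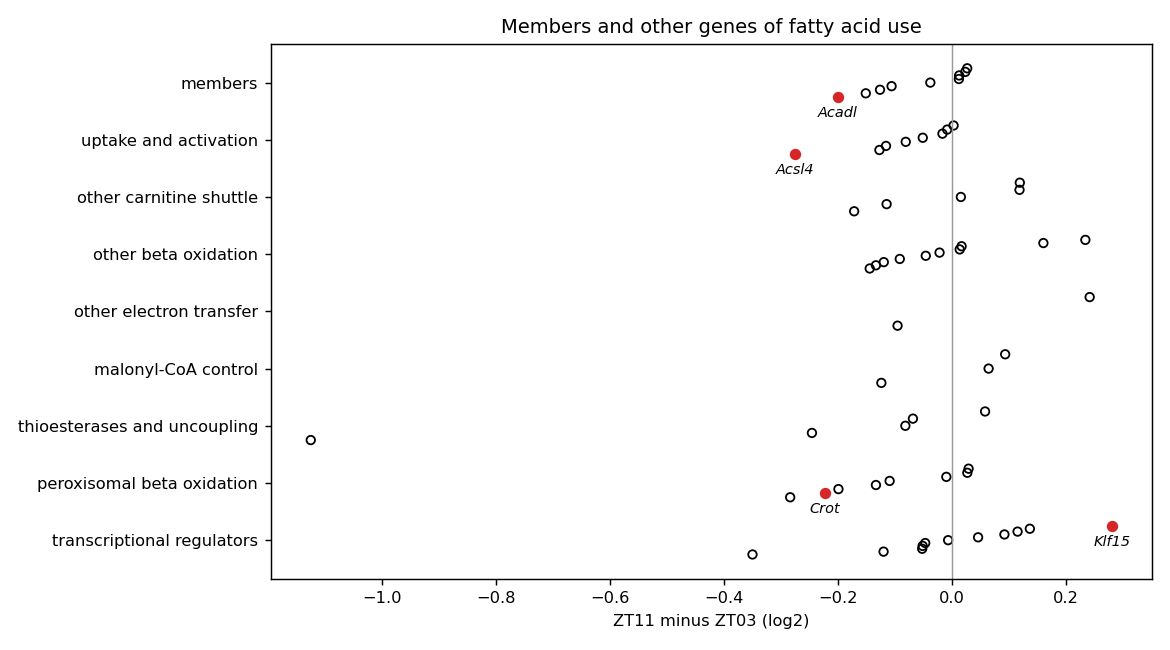
ZT11 minus ZT03 difference on the log2 scale (horizontal axis) for the 9 enzymes and 52 other genes of fatty acid use, grouped by role (vertical axis), each point 1 gene; filled red points have an adjusted p under 0.05. Acadl, Acsl4 and Crot are lower at ZT11 and Klf15 higher, and Acot2, the point near -1.13, does not pass.

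The 6 other genes whose values followed the mean of the 9 members most closely over the 24 hearts were Tmem245 (Pearson r 0.88), Slc25a11 (0.86), Ppp2r1a (0.85), Acot2 (0.84), Mir5099 (0.83) and Vps26b (0.82), given as a description because they were ranked by that r. Slc25a11 is the oxoglutarate carrier of the inner mitochondrial membrane and Acot2 a mitochondrial thioesterase that frees fatty acids from acyl-CoA. Acot2 stood at -1.23, -0.15, -0.45 and 0.47 at ZT11 and at 0.30, 0.49, 1.06 and 1.29 at ZT03. Its ZT11 minus ZT03 difference of -1.13 had an adjusted p of 0.15 in limma. None of the 6 passed the time-of-day test (adjusted p 0.17 to 0.65).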

How the data were processed

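Heart RNA was isolated with TRIzol, and 500 ng of it went into biotinylated cRNA for Affymetrix arrays, per the labels' protocols. The authors deposited 1 table of log2-type values for 34351 features and 24 arrays; each feature had been centred on its median (largest absolute median 5e-07). Probe summarization, normalization, log base and filters are not given in the sources used. Columns were matched to samples by accession, and features to genes by the platform annotation (23521 with 1 symbol, 1814 with several, 9016 with none); features of a gene were averaged (1082 genes), leaving 22180. Intensity over background is unknown, and 4 arrays per time point limit the precision.

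Tests were run in R 4.3.3 with limma 3.58.1 on 1 fit of 6 time-point means, or a 24 h cosine and sine pair, with eBayes and Benjamini-Hochberg adjustment over all genes at 0.05; figures used matplotlib 3.10.9. The script was tested on simulated data. Intervals are 95%, and an SE is that of the fit. Correlations of member pairs used 100000 permutations of the 24 hearts, made without regard to time point.

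The members and gene lists were chosen with earlier results of these data known. Named genes were all members, listed genes that passed a comparison, up to 3 per list with the smallest time-of-day p, and the 6 genes most correlated with the members' mean. The design asked for a filter on low values, which centred values do not allow. Alternatives were features taken singly, quantile normalization, array weights, a replicate block, robust eBayes, 12 h terms and each array left out. Same-numbered replicates were not paired: 60 pairs of arrays with the same number had a median correlation of deviations of -0.00075, with 8 over 0.1. The 180 pairs of different numbers had a median of -0.00096, with 18 over 0.1.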

Additional observations from a re-analysis of the deposited data

Results flagged for a closer look

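Of 54 groups of 4 hearts (9 members at 6 time points), 4 held a heart set apart from the other 3 by more than Dixon's 95% critical share of the group's range, where chance gives about 1 in 20. Hadhb stood at 0.49 in ZT07 replicate 1, with the other hearts between -0.023 and 0.0079. Acadvl stood at 0.17 in ZT23 replicate 1, with the others between -0.14 and -0.13. Eci1 stood at 0.13 in ZT19 replicate 2, with the others between -0.0073 and 0.010. Hadha stood at -0.067 in ZT23 replicate 4, with the others between 0.013 and 0.015. In ZT23 replicate 1, Hadha stood at 0.015 and Hadhb at -0.067, so that the high Acadvl value was not shared by these enzymes.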

How the results depend on the processing

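Centring, 4 hearts per time point and an unknown signal over background limit all values, and a filter on low values was not run because the values hold no level. Of 89 single-gene results, 6 passed as reported (Acadl, Acsl4, Crot and Klf15 in ZT11 minus ZT03, Crot and Klf15 in the time-of-day test). Acadl kept its call under features taken singly, quantile normalization, array weights, the replicate block and robust eBayes, and lost it without both arrays of lowest weight (-0.18, adjusted p = 0.086 in limma), a setting chosen after seeing the data, in which 0 members passed. Acsl4 and Crot lost theirs there (adjusted p = 0.078 and 0.077) and under quantile normalization (0.062 and 0.068), and Acsl4 under robust eBayes (0.051). The labels do not say that a replicate number marks a shared batch. Correlations over 0.1 were found in 8 of 60 same-numbered pairs of arrays and in 18 of 180 pairs of different numbers. Of 24 arrays, 10 correlated best with an array of their own number, among candidates that formed 60 same-numbered pairs beside 180 of different numbers. Whether this marks a batch was not tested. With the replicate block, 218 genes passed the time-of-day test in place of 329; adjusted p was 0.061 for Crot and 0.059 for Klf15 in that test, and 0.053 for Acsl4, 0.070 for Crot and 0.051 for Klf15 in ZT11 minus ZT03.

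Counts over all genes moved by more than 1.5 times in the following settings. Under quantile normalization 30 genes passed the 24 h test, 144 dark minus light, 8 ZT19 minus ZT07 and 1 ZT23 minus ZT11; under array weights 59, 430 and 1 passed the 24 h test, ZT15 minus ZT03 and ZT19 minus ZT07. With 12 h terms beside the 24 h terms, 74 genes passed the 24 h test. Without both low-weight arrays 222, 365, 1 and 3 genes passed ZT11 minus ZT03, ZT15 minus ZT03, ZT19 minus ZT07 and ZT23 minus ZT11. The cause was not tested.

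With single hearts left out, 28 (without ZT03 replicate 3) to 467 (without ZT11 replicate 4) genes passed the time-of-day test, 3 to 45 the 24 h test and 51 to 183 dark minus light. In the same fits 190 (without ZT03 replicate 3) to 747 passed ZT11 minus ZT03, with 0 to 1 members, 25 (without ZT03 replicate 3) to 326 ZT15 minus ZT03, 0 to 3 ZT19 minus ZT07 and 0 to 4 ZT23 minus ZT11.

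Signs turned only for members that did not pass. Under array weights Acadm was 0.00072 in dark minus light, Hadha 0.0012 and Hadhb 0.0018 in ZT15 minus ZT03, Acadvl -0.010 in ZT19 minus ZT07, and Hadha 0.00018 and Etfdh 0.0042 in ZT23 minus ZT11. Without both low-weight arrays Acadl was 0.027 and Cpt2 0.0035 in ZT19 minus ZT07. With single hearts left out, Acadm ran from -0.0082 to 0.0097 in dark minus light. In ZT11 minus ZT03 Hadha ran from -0.045 to 0.069, Hadhb from -0.0071 to 0.076, Acaa2 from -0.013 to 0.050 and Cpt2 from -0.029 to 0.052. In ZT15 minus ZT03 Acadm ran from -0.028 to 0.0096, Hadha from -0.072 to 0.040 and Hadhb from -0.059 to 0.030. In ZT19 minus ZT07 Acadl ran from -0.042 to 0.027, Acadvl from -0.058 to 0.061, Hadhb from -0.13 to 0.036, Acaa2 from -0.018 to 0.019, Cpt2 from -0.11 to 0.0035 and Etfdh from -0.0080 to 0.051. In ZT23 minus ZT11 Acadl ran from -0.0020 to 0.053, Acadm from -0.044 to 0.0098, Hadha from -0.038 to 0.049, Eci1 from -0.079 to 0.025 and Etfdh from -0.022 to 0.033.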
